A study of Mus musculus with 4 samples.

Results

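The comparison was between 2 libraries of G3 cells, the one labelled G3 Gadd45-/-Terc-/- (dKO) and the one labelled G3 Terc-/-, each made from primary mouse embryo fibroblasts of the C57BL/6 strain. Both lack Terc by label and both are G3, the usual name for the third generation bred without it, so the labels differ only in Gadd45, which the series' design text names as Gadd45a. The other 2 libraries of the series, labelled Wild-type and Gadd45-/-, both with Terc, are given beside them for reference. Each genotype had 1 library of poly(A)-selected RNA, so no difference below has a replicate check, an error or a test, and the labels do not say how many embryos or cultures stand behind a library. The 2 deposited tables were joined on gene symbol, short RNA symbols (734 of 23235) were left out, and genes with a mean FPKM of at least 1 over the 2 G3 libraries were kept. That left 11680 of 22501 genes compared, and 10821 lay under the filter. FPKM counts fragments relative to transcript length and to the depth of the library. Each gene is described by its difference of log2(FPKM + 1), the library labelled doubly deficient minus the library labelled Terc-deficient. A gene is called higher when that difference reaches 1 and lower when it reaches -1, which is a 2-fold change in FPKM + 1 and is named the size rule here. Where 4 values are given, they stand in the order wild type, Gadd45a-deficient, G3 Terc-deficient and G3 doubly deficient, all as labelled.

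Terc encodes the RNA template of telomerase, and mice bred without it for several generations carry shortened telomeres. Cells with damaged telomeres are known to stop dividing through the p53 and retinoblastoma pathways and can secrete cytokines, chemokines and proteases, many of them driven by the factor NF-kB. DNA or RNA in the wrong compartment is read by cytosolic sensors that switch on type I interferon, whose receptor signals through factors such as STAT2 and IRF9 to genes that carry an interferon-stimulated response element. Gadd45a is a stress-induced protein linked to growth arrest, p38 signalling, base excision repair and active DNA demethylation. The comparison asks how transcripts differ with the Gadd45a label in cells without Terc.

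The Gadd45a transcript did not follow the label, at 22.9, 33.9, 31.4 and 45.1 FPKM. It was thus 1.43-fold as high in the library labelled doubly deficient as in the library labelled Terc-deficient, and the directions below are those of the labels, since no loss of the transcript was measured. The files hold 1 number per gene, so reads over particular exons cannot be seen. Its relatives Gadd45b (25 against 28.8 FPKM) and Gadd45g (118 against 131 FPKM) in the doubly deficient against the Terc-deficient library lay within the size rule. Terc was listed at 0 in both, which is no check of the label, since whether these poly(A)-selected libraries can measure it was not tested. The fibroblast label was met in both G3 libraries, with Col1a1 at 4037 against 1697 FPKM and Vim at 2034 against 1362 FPKM, while Pdgfra (20.8 against 37.1 FPKM), Thy1 (476 against 564 FPKM) and Fap (1.83 against 2.81 FPKM) lay below 0. The 10 fibroblast markers summed to 12600.0 FPKM in the doubly deficient and 7421 FPKM in the Terc-deficient library. Markers of endothelial and erythroid cells summed to at most 2.52 FPKM over each list. Other lists were unequal, with summed levels in the same order of 78.7 and 32.5 FPKM for neuronal, 4.95 and 35.6 FPKM for hepatocyte and 17.3 and 39.1 FPKM for adipocyte markers. Most of each larger sum came from 1 gene. These were Tubb3 (77 against 26.1 FPKM), Trf (2.8 against 30.6 FPKM) and Fabp4 (7.34 against 32.2 FPKM). The neuronal marker Stmn2 (0.737 against 5.19 FPKM) and the adipocyte marker Lpl (8.71 against 6.12 FPKM) were among those running against their sums. Macrophage markers were low but unequal, with a summed level of 23.5 FPKM over 13 genes in the doubly deficient and 5.60 FPKM in the Terc-deficient library, of which Lyz2 gave 11.5 against 2.44 FPKM. C1qa, C1qb, C1qc and Tyrobp were listed at 0 in the Terc-deficient library and at 1.52 to 2.17 FPKM in the other. The defining macrophage gene Emr1 was very low but ran the same way, at 0.297 against 0.0333 FPKM. Cd68 (2.74 against 2.21 FPKM) and Csf1r (0.901 against 0.828 FPKM) were close. Markers of neutrophils and other leukocytes summed to 1.38 and 3.11 FPKM, with S100a8 at 0 against 2.96 FPKM and Laptm5 at 0.959 against 0.0924 FPKM. The part of such cells in the results was not tested. Xist stood at 34.1 and 30.2 FPKM, so this sex-linked transcript was close between the G3 libraries.

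Promoter sequences are shown first for genes of several groups whose members differed together between the 2 libraries. The genes shown were picked with earlier results of these data known. Matches among them therefore cannot be compared with the shares over all windows, which are given for reference. They were taken from RefSeq on the build GRCm38.p6, as windows from 250 bases before to 50 bases after a start site, and the table held 32851 windows of 27025 genes. The expression files name the build mm9, and the joining was by symbol only. A match of letters is a description and not a binding site. The first set holds interferon-stimulated genes, with the letters GAAANNGAAA of the interferon-stimulated response element (either strand, so the capitals may read as the reverse complement) in capitals. These letters stood in 3.44% of all windows.
Isg15, chr4:156200855-156200916, minus strand: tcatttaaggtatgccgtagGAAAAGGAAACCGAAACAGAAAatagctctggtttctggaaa
Ifit1, chr19:34640765-34640833, plus strand: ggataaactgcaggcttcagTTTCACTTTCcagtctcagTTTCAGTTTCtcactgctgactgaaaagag
Ifit3, chr19:34583353-34583436, plus strand: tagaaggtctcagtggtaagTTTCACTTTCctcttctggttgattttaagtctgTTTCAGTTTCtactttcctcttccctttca
Rsad2, chr12:26456543-26456592, minus strand: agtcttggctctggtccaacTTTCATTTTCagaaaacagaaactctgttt
Gbp2, chr3:142620584-142620633, plus strand: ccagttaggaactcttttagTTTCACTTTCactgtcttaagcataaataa
Cxcl10, chr5:92349073-92349122, minus strand: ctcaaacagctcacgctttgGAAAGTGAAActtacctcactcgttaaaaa
Isg15 held 3 overlapping matches, the first beginning 78 bases before the start, Ifit1 and Ifit3 held 2 matches each, and the others 1. The windows of Irf7, Ifi44, Psmb9 and H2-K1 did not hold these letters. The second set holds chemokine genes with the letters GGGNNNTTCC of an NF-kB site (either strand) in capitals, which stood in 5.56% of all windows.
Cxcl1, chr5:90891136-90891204, plus strand: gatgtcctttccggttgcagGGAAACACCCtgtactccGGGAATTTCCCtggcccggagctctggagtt
Cxcl2, chr5:90903782-90903850, plus strand: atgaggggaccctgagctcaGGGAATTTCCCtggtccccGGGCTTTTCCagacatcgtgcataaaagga
Ccl20, chr1:83116666-83116715, plus strand: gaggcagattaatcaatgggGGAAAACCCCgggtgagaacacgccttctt
Cxcl1 and Cxcl2 held 3 matches each, of which a pair on opposite strands overlapped and began 71 and 97 bases before the start. The windows of Saa3, Lcn2 and C3 did not hold the letters. Mmp3, a matrix protease, is shown for the letters TGANTCA of an AP-1 site, found in 7.81% of all windows.
Mmp3, chr9:7445756-7445802, plus strand: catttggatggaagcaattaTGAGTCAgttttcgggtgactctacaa
The last set holds mitotic genes with the letters TTTGAA of the cell cycle homology region, also on either strand, in capitals.
Cdc20, chr4:118437336-118437381, minus strand: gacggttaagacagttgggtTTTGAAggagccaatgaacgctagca
Mki67, chr7:135716452-135716515, minus strand: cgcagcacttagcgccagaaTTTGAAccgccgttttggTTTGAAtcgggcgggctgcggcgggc
Prc1, chr7:80294426-80294471, plus strand: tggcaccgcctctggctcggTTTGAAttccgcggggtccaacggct
Ube2c, chr2:164769880-164769925, plus strand: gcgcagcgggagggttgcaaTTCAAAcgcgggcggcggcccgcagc
Kif11, chr19:37376343-37376388, plus strand: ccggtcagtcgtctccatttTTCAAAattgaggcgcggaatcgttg
Of 68 windows that belong to 63 of the 74 measured mitotic genes, 43 (63.2%) held TTTGAA, against 17.9% of all windows, and 48 (70.6%) held CCAAT, against 37.4%. Windows of measured genes within the size rule held them in 11.6% and 37.8%. These shares describe the mitosis list as chosen, of which 24 genes were higher and 49 within the rule. They do not depend on the 2 libraries and say nothing of the genes that differed. The window of Ccnb1 held CCAAT but not TTTGAA. No such share is given for the lower or the higher genes or for the interferon list, because only 72.9%, 68.7% and 77.2% of their genes had a window, too few for such a check.

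The difference between the G3 libraries was one-sided. In the doubly deficient library 179 genes were higher, which is 1.53% of the genes measured, and 601 were lower, which is 5.15%, while 10900 (93.3%) lay within the size rule. The counts of called list members below are to be read beside these shares. Quantile normalization, which forces both libraries to the same distribution, gave 256 higher and 511 lower, so that 33.4% of called genes were higher in place of 22.9%. The median difference of all genes was -0.0393, and it was 0.0554 after quantile normalization, so differences of a few hundredths are the zero line. Large differences leaned further to the lower side, with 177 genes lower and 23 higher by at least 2 on the log2 scale, 62 and 8 by at least 3, and 19 and 1 by at least 4. Across genes the 2 libraries correlated with r = 0.945 on the log2(FPKM + 1) scale, over 11680 genes that share both libraries.

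**Figure D1:**
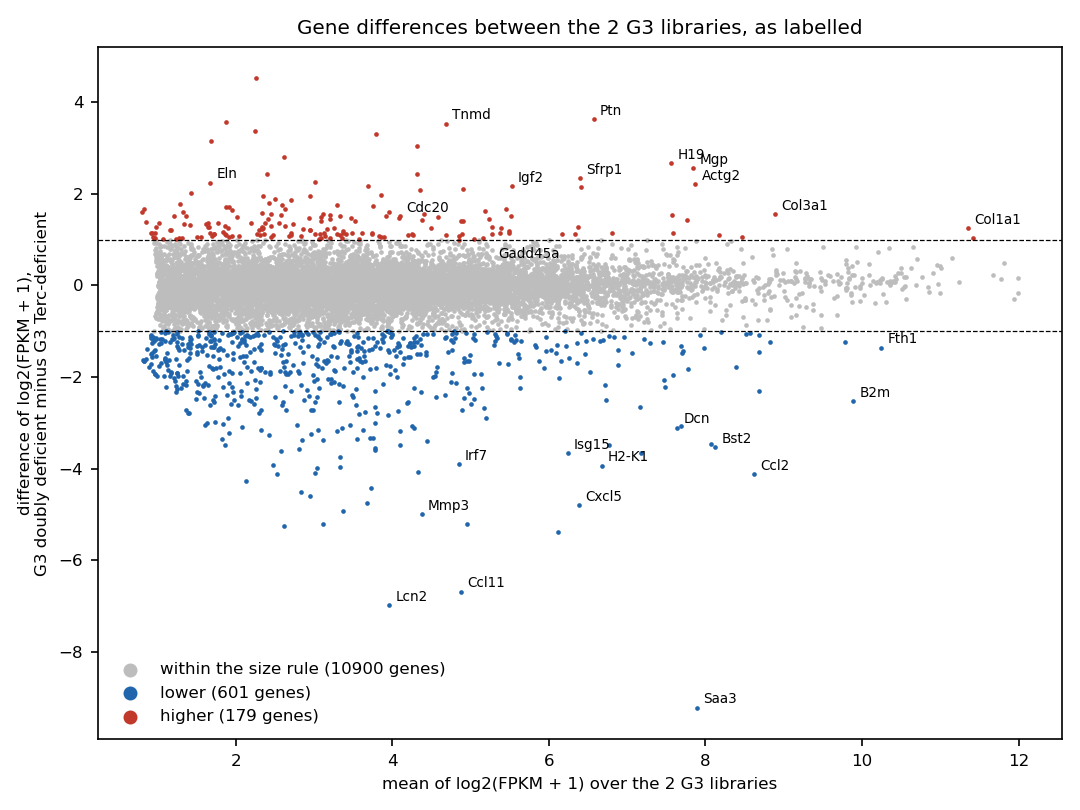
Each point is 1 of 11680 genes, with its mean log2(FPKM + 1) over the 2 G3 libraries on the x axis and the difference of log2(FPKM + 1), G3 doubly deficient minus G3 Terc-deficient, on the y axis. Dashed lines mark the size rule, and the cloud of 601 lower genes reaches further from 0 than that of 179 higher genes.

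The levels of the called genes in all 4 libraries are given as a description, since a gene that is high in 1 library alone can pass the filter and the rule through it. The median level of lower genes was 2.0 FPKM in wild type, 2.34 in the Gadd45a-deficient, 14.2 in the Terc-deficient and 2.95 in the doubly deficient library. Higher genes had medians of 12.3, 14.3, 4.06 and 11.8 FPKM. Many called genes were weakly expressed, with a mean of 1 to 5 FPKM in 215 of the lower and 62 of the higher genes, and 11 and 3 were listed at 0 in 1 library. With genes in 5 equal bins by mean level, 9.72% were lower in the lowest bin against 3.6% in the highest. The share of lower genes also went with transcript length, from 7.98% in the shortest of 5 bins to 3.12% in the longest, for the 90.6% of genes with a transcript of that name in GENCODE M21. The parts of level and length in the counts were not tested.

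Chemokines, the secreted proteins that draw leukocytes, had the lowest median of the 33 lists. Of 20 measured chemokine genes 14 were lower and 1 was higher in the doubly deficient library, with a median of -3.26. In bulk RNA fewer expressing cells and less RNA per cell cannot be told apart, here and in all that follows. Ccl11, an attractant of eosinophils, stood at 0.471, 1.04, 298 and 1.9 FPKM. Ccl20, which attracts T helper and dendritic cells, stood at 1.2, 1.09, 51.9 and 0.419 FPKM. Ccl2, the main attractant of monocytes, stood at 104, 112, 1638 and 93 FPKM. For all 3 the Terc-deficient library was far above the others, and on the FPKM + 1 scale the doubly deficient library lay within 2-fold of wild type. The monocyte attractants Ccl7 (80.01 against 898 FPKM) and Ccl8 (3.92 against 81.5 FPKM) and the T cell attractant Ccl5 (1.07 against 31.6 FPKM), in the doubly deficient against the Terc-deficient library, had differences of -3.47, -4.07 and -3.98. Neutrophil attractants of the CXC class were lower too, with Cxcl1 at 2.75, 5.58, 189 and 4.1 FPKM, Cxcl5 at 9.42, 18.9, 440.2 and 14.9 FPKM and Cxcl3 at 0.253, 0.68, 33.3 and 0.495 FPKM. The interferon-inducible T cell attractants Cxcl10 (0.951 against 32.5 FPKM) and Cxcl9 (0.297 against 6.87 FPKM) had differences of -4.10 and -2.60. Cxcl14, expressed by fibroblasts at rest, was at odds with the list and higher, at 36.2, 43.3, 53.5 and 118 FPKM. Cxcl12, which holds haematopoietic cells in their niche, stood at 163 against 116 FPKM, a difference of 0.48.

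**Figure D2:**
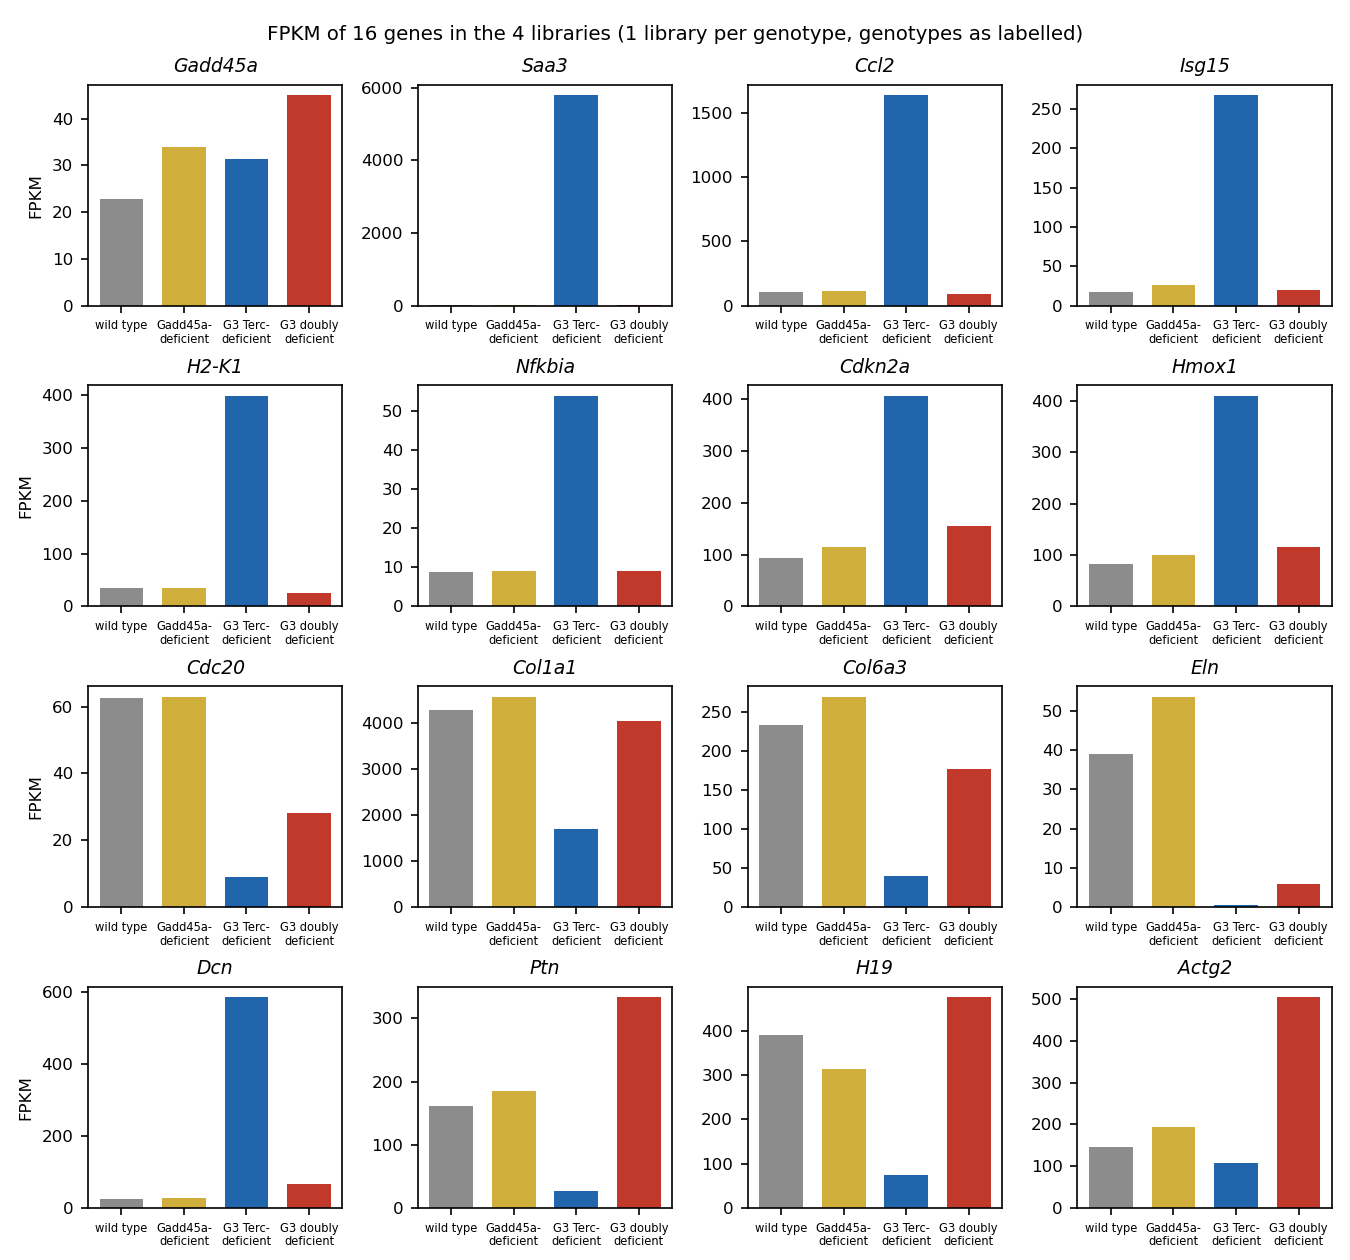
Bars give FPKM of 16 genes in the 4 libraries, 1 library per genotype as labelled, each panel with its own axis from 0. For Saa3, Ccl2, Isg15, H2-K1, Nfkbia, Cdkn2a, Hmox1 and Dcn the Terc-deficient bar is the tallest, and for Cdc20, Col1a1, Col6a3, Eln, Ptn, H19 and Actg2 it is the lowest.

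Acute-phase proteins, made in infection and injury, and the complement system followed. Of 24 genes measured in this list 17 were lower and 1 was higher, with a median of -1.76. Saa3, serum amyloid A of macrophages and fibroblasts, held the largest difference of all genes, at 9.55, 9.95, 5800.2 and 8.73 FPKM and a difference of -9.22. Lcn2, which withholds iron from bacteria by binding their siderophores, stood at 0.631, 0.386, 175 and 0.386 FPKM. The metalloreductase Steap4 (0.563 against 36.9 FPKM), the ferroxidase Cp (3.13 against 36 FPKM), the endotoxin-binding protein Lbp (0.367 against 7.03 FPKM) and the pentraxin Ptx3 (48.4 against 223 FPKM) were also lower. Among complement components C3, on which all pathways converge, stood at 0.447, 0.183, 56.3 and 0.874 FPKM. The initiating proteases C1s (6.48 against 43.3 FPKM) and C1ra (4.11 against 14.7 FPKM), the alternative-pathway protease Cfb (0.888 against 9.77 FPKM) and C2 (1.7 against 4.53 FPKM) were lower. Serping1, the inhibitor of the initiating proteases, was lower too, at 12.9 against 70.1 FPKM. C1qa, which binds immune complexes and is a product of macrophages, was higher, at 0.292, 0.855, 0 and 2.17 FPKM, beside the macrophage markers given above. The surface regulators Cd55 (26.2 against 59.3 FPKM) and Cd59a (24.5 against 14.7 FPKM) differed by -1.15 and 0.70.

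Cytokines were mixed. Of 30 measured cytokine and receptor genes 12 were lower and 1 was higher, with a median of -0.39. Lif, a cytokine of the interleukin-6 family, stood at 4.23, 5.03, 41.9 and 3.27 FPKM, and Il6 itself at 0.87, 2.1, 40.2 and 4.77 FPKM. All 3 colony stimulating factors were lower, with Csf1, the macrophage growth factor, at 294 against 695 FPKM, Csf3 at 0.303 against 2.14 FPKM and Csf2 listed at 0 against 2.81 FPKM. Csf3 and Csf2 passed the filter through the Terc-deficient library. Il1a was listed at 0 against 2.15 FPKM, and the interleukin-1 receptor family chains Il1rap (7.04 against 29.5 FPKM) and Il1rl1 (35.1 against 88.2 FPKM) were lower. Il1rn, the secreted antagonist of the interleukin-1 receptor, ran the opposite way, at 4.44, 17.4, 0.473 and 14.2 FPKM and a difference of 3.37. Of the TNF receptors, Fas, which triggers cell death, stood at 3.29, 5.18, 41.1 and 7.86 FPKM, Cd40 at 11.1, 5.43, 8.34 and 0.648 FPKM and Tnfrsf9 at 0.0285, 0.0786, 4.29 and 0.0558 FPKM. Cd40 was thus lower in the doubly deficient library than in any other, unlike Fas. The signal transducer Il6st (94.3 against 84.2 FPKM) and the receptor Tnfrsf1a (114 against 103 FPKM) lay within the size rule. Il1b, Tnf and Il33 were under the filter.

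In the NF-kB pathway the feedback inhibitors differed most. Of 33 measured genes 8 were lower and 0 higher, with a median of -0.54 and 31 differences below 0. Nfkbia, the inhibitor that NF-kB itself induces, stood at 8.72, 9.06, 53.8 and 9.15 FPKM. Nfkbiz, a co-activator of Lcn2 and other late targets, stood at 10.5, 10.1, 75.3 and 10.6 FPKM, and Tnfaip3, a deubiquitinase that ends the signal, at 1.09, 1.59, 9.96 and 0.915 FPKM. In all 3 the doubly deficient library lay close to wild type. None of the 5 subunits passed the size rule, although all lay below 0: Relb (-0.95), Nfkb1 (-0.76), Rel (-0.75), Nfkb2 (-0.28) and Rela (-0.08). The kinases Ikbke (5.71 against 19.5 FPKM) and Map3k8 (2.37 against 8.43 FPKM) and the receptors Tlr2 (0.699 against 5.83 FPKM) and Tlr5 (1.0 against 4.11 FPKM) were lower, while the core kinase subunit Ikbkb (14.7 against 14.9 FPKM) and the adaptor Myd88 (18.7 against 18.5 FPKM) lay near 0. A transcript level does not show the activity of these proteins.

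The interferon response was the broadest group. Of 92 measured members 69 were lower and 0 higher, with a median of -1.77, and 88 differences lay below 0. Among 40 antiviral effectors 36 were lower. Isg15, a ubiquitin-like modifier, stood at 17, 26.7, 268 and 20.3 FPKM, and Usp18, which removes it and damps the receptor, at 5.69 against 69.6 FPKM. Ifit1, which recognises foreign RNA, stood at 4.1 against 56.4 FPKM, and its relative Ifit3 at 4.66 against 50.5 FPKM. Oasl2 (2.99 against 45.9 FPKM) and Oas1a (0.0893 against 11.1 FPKM) belong to the oligoadenylate synthetase family, and Bst2, which tethers budding virions, stood at 81.1 against 949 FPKM. Ifi44 had the largest difference of the effectors, -3.75. Parp12, at -0.93, fell short of the rule. Of 16 interferon-inducible GTPases, which attack vacuoles of intracellular parasites, 11 were measured. All 11 were lower, from Iigp1 (0.263, 0.585, 22.2 and 1.25 FPKM) to Gbp7 (0.73, 0.685, 4.98 and 0.978 FPKM). Gbp3 (2.26 against 28.6 FPKM), Gbp2 (4.32 against 24.5 FPKM) and Igtp (2.31 against 16.7 FPKM) lay between. The median log2(FPKM + 1) of the 11 was 0.791, 0.96, 4.14 and 1.68. Some could thus pass the filter through the Terc-deficient library alone, which favours lower calls.

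Antigen presentation genes differed in the same direction, with 12 of 15 measured genes lower. The class I heavy chains H2-K1 (35.3, 35.7, 399 and 25.1 FPKM) and H2-D1 (43.7, 65.9, 512 and 39.6 FPKM) and their partner B2m (298, 381, 2267 and 394 FPKM) were abundant in all libraries and highest in the Terc-deficient one. The immunoproteasome subunits Psmb8 (2.95 against 46.8 FPKM) and Psmb9 (0.25 against 9.18 FPKM) and the peptide transporter Tap1 (8.7 against 30.7 FPKM) were lower, and so was the class II chain H2-Ab1 (0.709 against 19.9 FPKM). The third immunoproteasome subunit Psmb10 did not follow, at 11.5 against 11.1 FPKM. Of 10 nucleic acid sensors 6 were lower, with the Z-nucleic acid sensor Zbp1 at 0.177, 0.899, 36.2 and 2.67 FPKM and the RNA sensors Dhx58, Ifih1 and Ddx58 at differences of -2.20, -1.88 and -1.30. Tmem173, the adaptor STING of cytosolic DNA sensing, stood at 22.9, 19.1, 15.5 and 23.2 FPKM, a difference of 0.55, above 0. Among 16 receptors, kinases and factors 4 were lower, among them Irf7 (2.88, 3.66, 110.4 and 6.46 FPKM), Stat2 (16.5 against 51.4 FPKM) and Ifnar2 (31.6 against 68 FPKM). Irf3 (-0.13), Jak1 (-0.079) and Stat3 (0.39) lay within the rule. None of the type I interferon genes of the list (Ifnb1, Ifna1, Ifna2 and Ifna4) passed the filter. Values of H2-Q4, H2-Q6 and H2-Q7, which were lower by more than 4, are uncertain because these genes have near-identical copies.

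**Figure D3:**
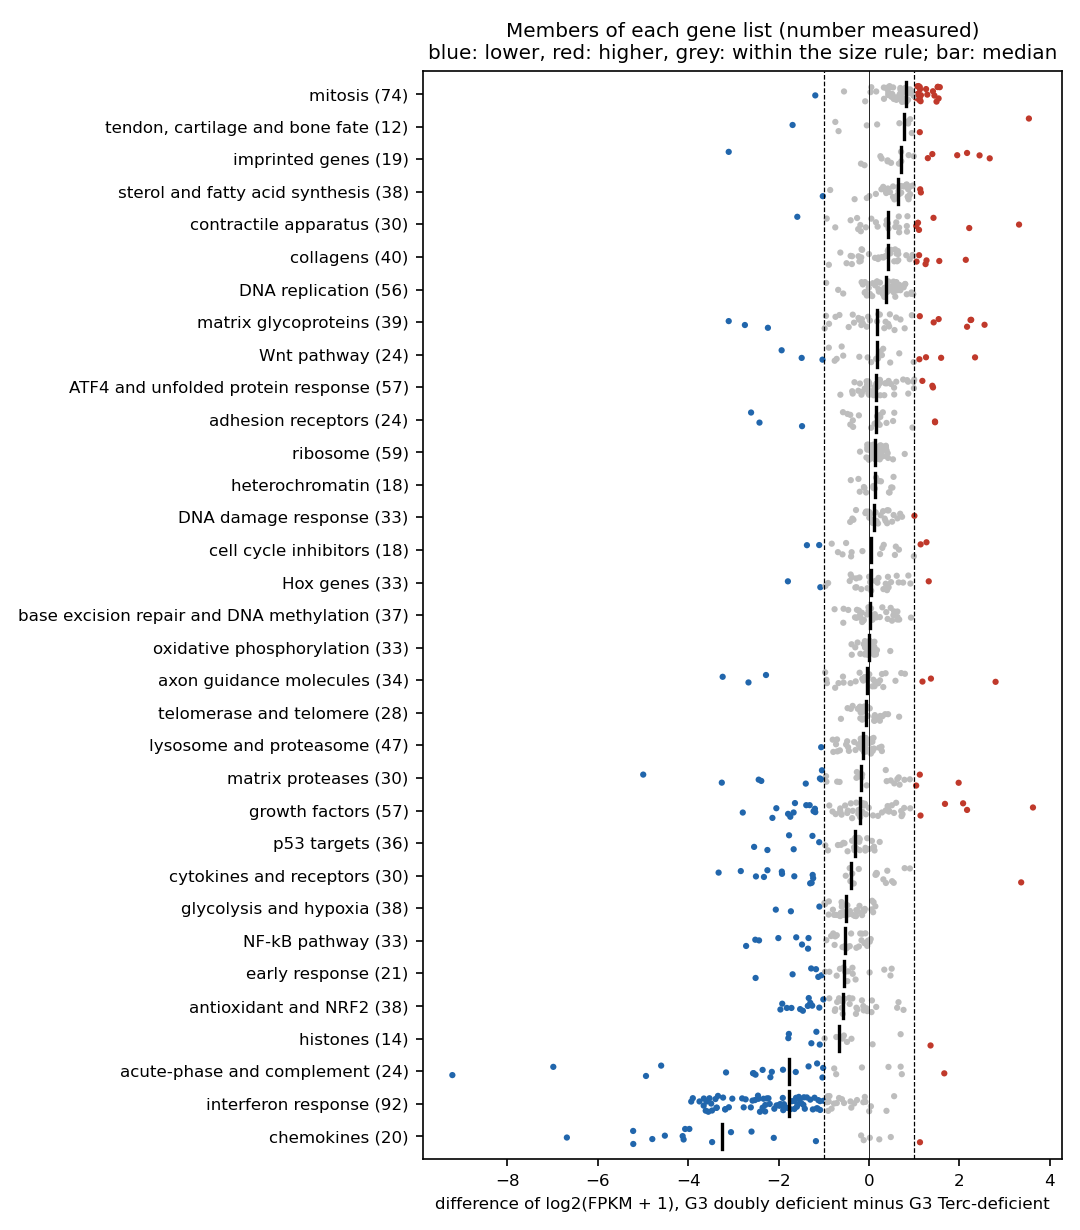
Each point is a measured member of 1 of 33 gene lists, placed by its difference of log2(FPKM + 1), G3 doubly deficient minus G3 Terc-deficient, with lists ordered by their median (bar) and dashed lines at the size rule. Chemokines, interferon response and acute-phase genes lie furthest to the left and the mitosis list at the top right, while ribosome and oxidative phosphorylation genes crowd around 0.

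Lower genes also lay side by side in the genome. Neighbour order was taken from GENCODE M21 over the 10577 measured genes placed in it, and a run is 3 or more neighbouring measured genes called in 1 direction. There were 21 runs of lower genes, holding 78 genes, and 1 run of higher genes. A run of 6 lower genes held the oligoadenylate synthetases Oas2, Oas3, Oas1c, Oas1b, Oas1g and Oas1a. Runs of 5 genes were the neutrophil attractants Cxcl5, Ppbp, Cxcl3, Cxcl1 and Cxcl2, the class II region genes Psmb9, Tap1, Psmb8, Tap2 and H2-Ab1, and the restriction factors Trim34a, Trim12a, Trim12c, Trim30a and Trim30d. The run of higher genes held the serine proteases Mcpt8 (42.9 against 19.2 FPKM), Gzme (27.3 against 9.16 FPKM) and Gzmd (3.08 against 0.968 FPKM). Members of such clusters resemble each other in sequence, and fragments shared between copies make their single values less certain.

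Immediate early genes and matrix proteases were lower in part. Of 21 early response genes 6 were lower and 0 higher, with a median of -0.56. Ier3 (54.9, 53.1, 252 and 43.4 FPKM), Egr1 (47.4, 38.8, 72.8 and 21.8 FPKM) and the AP-1 subunits Fosl1 (6.45, 9.23, 15.9 and 5.94 FPKM) and Junb (62 against 141 FPKM) were lower, as was Myc (44.5, 36.4, 31.9 and 14.9 FPKM). Of these, Junb alone was not lowest of the 4 libraries in the doubly deficient one. Fos (-0.37), Atf3 (0.012) and Dusp1 (0.34) lay within the rule. Among 22 matrix-degrading proteases 6 were lower and 3 higher. The stromelysins Mmp3 (2.41, 3.45, 116 and 2.67 FPKM) and Mmp10 (2.1, 0.829, 24.5 and 3.88 FPKM), the collagenase Mmp13 (2.74, 2.57, 25.4 and 3.85 FPKM) and the gelatinase Mmp9 (2.09, 1.96, 15.6 and 0.734 FPKM) were lower. Mmp13, Mmp3 and Mmp10 form a run of neighbours. Adam12 (23.6, 24.5, 6.28 and 27.7 FPKM) and the plasminogen activator Plau (18.7, 35.6, 47.6 and 105 FPKM) were higher, and the membrane-bound Mmp14 lay within the rule at 420.4 against 301 FPKM. The protease inhibitors Serpine2 (71.9 against 191 FPKM) and Reck (9.97 against 22.3 FPKM) were lower.

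Genes of mitosis were higher in part in the doubly deficient library. Of 74 measured members 24 were higher and 1 was lower, at a median difference of 0.82, and 71 differences lay above 0. The highest difference was 1.56, for Ccnb1, the cyclin that starts mitosis. Ccnb1 stood at 36.5, 36.4, 4.06 and 14 FPKM, the mitotic kinase Plk1 at 33.2, 34, 4.39 and 14.6 FPKM and Cdc20, which activates the anaphase-promoting complex, at 62.5, 63, 9.14 and 28 FPKM. In these 3 the doubly deficient library lay between the Terc-deficient one and those with Terc. The proliferation marker Mki67 (27.9, 24.1, 2.97 and 8.69 FPKM), the spindle midzone protein Prc1 (36, 36.2, 4.96 and 16.1 FPKM) and the motor Kif20a (30.6, 29.2, 4.22 and 12.9 FPKM) had the same order, and so had Aurka (28.6, 27.7, 5.45 and 12.2 FPKM), Top2a (45.2, 42.5, 8.09 and 18.8 FPKM), Birc5 (55.6, 49.5, 8.03 and 18.9 FPKM) and the mitotic transcription factor Foxm1 (16, 15.8, 2.81 and 7.14 FPKM). Kinetochore genes had 4 of 18 higher, with Cenpa (32, 31.3, 4.56 and 14.2 FPKM) first. Pttg1, the securin that guards separase, was at odds with its list and lower, at 13, 16.1, 39.8 and 16.9 FPKM, and Zwint (39, 36.4, 60.1 and 40.6 FPKM) also lay below 0. Ccnb1, Cdc20, Kif20a and Mki67 peak in the same phase of the cycle, so their values are not separate observations of the culture.

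DNA replication genes leaned the same way without passing the rule. Of 56 measured 0 were higher and 0 lower, at a median of 0.38, and 45 differences lay above 0. The helicase subunit Mcm5 (23, 23.9, 3.95 and 8.75 FPKM) had a difference of 0.98, thymidine kinase Tk1 (30.2, 31.6, 7.22 and 14.8 FPKM) one of 0.94 and Uhrf1 (26.4, 22.6, 4.35 and 9.18 FPKM), which recruits the maintenance methyltransferase, one of 0.93. The G1 regulators Ccnd1 (80.3, 97.2, 81.4 and 50.3 FPKM) and Cdk6 (6.33, 7.38, 11.6 and 5.53 FPKM) lay below 0, at -0.68 and -0.95.

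The list of cell cycle inhibitors, which also holds pocket proteins and senescence regulators, split, with 2 of 18 measured genes higher and 2 lower. Of its 6 measured inhibitors of cell cycle kinases 1 was higher and 1 lower. Cdkn2a, the locus of p16 and p19ARF, was lower, at 93.9, 115, 407 and 156 FPKM, and Cdkn2c, which encodes p18, was higher, at 7.49, 7.16, 2.25 and 6.83 FPKM. The files give 1 value for Cdkn2a, so its products cannot be told apart. Cdkn1a, which encodes p21, stood at 236, 249, 452 and 279.9 FPKM, Cdkn2b at 80.7, 71.6, 121 and 68 FPKM and Cdkn1b at 13.1, 13, 6.56 and 14 FPKM, all within the size rule. Lmnb1, the lamin lost in senescent cells, was the other higher gene, at 34, 30.7, 5.97 and 14.4 FPKM, and Mdm2, described with the p53 targets, the other lower one. Of 36 p53 targets 6 were lower and 0 higher, with a median of -0.32. Perp, a desmosome and death effector, stood at 1.63, 1.86, 18.4 and 2.33 FPKM, Trp53i11 at 4.75, 3.71, 18.6 and 5.18 FPKM, the stress hormone Gdf15 at 3.84, 5.12, 28 and 7.52 FPKM, the kinase Plk2 at 119.9, 102, 241 and 101 FPKM and Mdm2, the ubiquitin ligase of p53, at 49.2, 52.1, 159 and 73.3 FPKM, and Fas was named above. Perp and Fas are also known outside the p53 pathway, and the targets Bax (271 against 259.6 FPKM), Bbc3 (14.9 against 15.9 FPKM), Zmat3 (23.2 against 23.1 FPKM) and Phlda3 (214 against 247 FPKM) had differences from -0.21 to 0.063. Trp53 itself stood at 85.5, 78.4, 65.8 and 59.4 FPKM.

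Genes of telomeres, base excision repair and chromatin, the processes named with Gadd45a and Terc, differed little. None of 28 measured telomerase and telomere genes, 37 of base excision repair and DNA methylation and 18 of heterochromatin passed the size rule. Over all genes measured 1.53% were higher and 5.15% lower, and in lists this short the lack of a call lies near those shares. The reverse transcriptase Tert stood at 1.21, 1.12, 2.23 and 2.01 FPKM, Terf1 and Terf2 of shelterin at 4.66 against 4.18 FPKM and 9.44 against 11 FPKM, and the telomerase component Nhp2 had the largest difference of the list, 0.66. The glycosylases Tdg (11.6, 11, 5.62 and 9.51 FPKM) and Ung (4.2, 4.22, 0.886 and 1.91 FPKM), which excise deaminated or oxidised bases during demethylation and repair, lay at 0.67 and 0.63, and Neil1 (3.87, 2.43, 5.98 and 3.11 FPKM) at -0.76. Apex1 (0.29), Xrcc1 (-0.27), Dnmt1 (0.38) and Tet3 (0.62) were within the rule as well. Of the DNA damage genes 1 of 33 was higher, the histone H2afx at 40.05 against 19.5 FPKM, which lies at the edge of the rule with a difference of 1.0029. Just outside it lay Ankle1 at 0.99987 and Phgdh at 0.99921, and on the lower side Cyp39a1 at -1.0005 was just inside and Fam65c at -0.99854 just outside. The median of the telomere list changed sign under quantile normalization, and no direction is read from it.

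**Figure D4:**
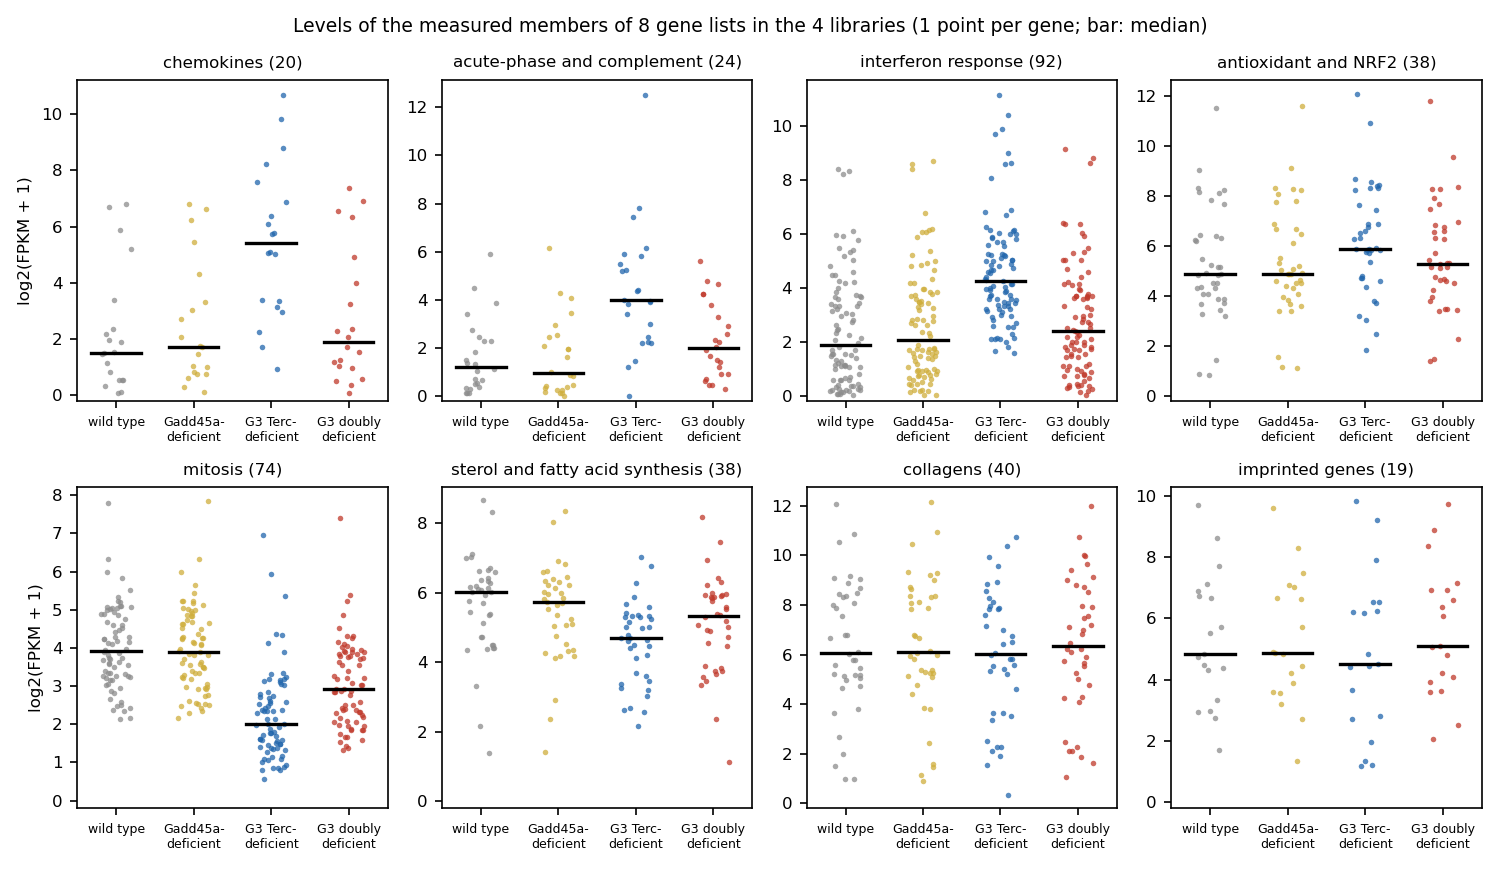
Points give log2(FPKM + 1) of each measured member of 8 gene lists in the 4 libraries, with bars at the medians. The Terc-deficient library has the highest median for chemokines, acute-phase, interferon and antioxidant genes and the lowest for mitosis and sterol synthesis, and the doubly deficient library lies between it and wild type in these 6 lists. The Terc-deficient median is also the lowest for collagens and imprinted genes. There the doubly deficient median lies above wild type, at 6.36 against 6.07 and 5.1 against 4.83.

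Matrix genes were higher in part. Of 40 collagen and collagen-processing genes 6 passed the rule upward and 0 downward, and the median was 0.42. Col1a1, the main collagen of bone and skin, stood at 4270.0, 4565, 1697 and 4037 FPKM, Col3a1 at 469.5, 596, 276 and 812 FPKM and Col5a1, which nucleates fibrils, at 576, 634, 244 and 507 FPKM. Col6a3, of the microfibrils around cells, had the largest difference of the collagens at 233, 269.5, 39.4 and 177 FPKM, while Col6a1 (0.41) and Col6a2 (0.65), its partner chains, stayed within the rule. The prolyl hydroxylase P4ha2 (54.3, 61.8, 233 and 125 FPKM) and Col12a1 (360.3, 319.7, 381 and 245 FPKM) lay below 0. Elastic fibre genes had 3 of 16 higher, all structural, with elastin (Eln) at 38.9, 53.7, 0.468 and 5.95 FPKM, Fbn2 at 70.1, 65.3, 5.07 and 26.3 FPKM and Fbn1 at 211, 241, 110.3 and 323 FPKM. Eln and Fbn2 stood below wild type in both G3 libraries, whereas Fbn1 stood above it in the doubly deficient one. Small leucine-rich proteoglycans, which bind collagen fibrils and growth factors, split into 3 lower and 2 higher of 8. Dcn (25.6, 28.2, 584 and 67 FPKM), Lum (4.87, 8.0, 42.6 and 5.49 FPKM) and Prelp (6.68, 13.2, 106 and 21.7 FPKM) were lower, and Podn (7.71, 12.2, 2.68 and 16.6 FPKM) and Fmod (19.4, 27.3, 5.65 and 13.5 FPKM) higher. Mgp, an inhibitor of calcification, stood at 109, 174, 93.8 and 556 FPKM, and Nid2, a basement membrane linker, at 19.5, 27.9, 11.7 and 33.2 FPKM.

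Contractile genes of the myofibroblast were higher in part. Of 19 actin and myosin genes 5 passed the rule upward and 0 downward, and the median was 0.66. Smooth muscle actins Actg2 (146, 194, 108 and 504 FPKM) and Acta2 (2756, 3253, 1913 and 3946 FPKM), calponin Cnn1 (73.1, 120.1, 132 and 357 FPKM), the tropomyosin Tpm2 (175, 239, 196 and 423 FPKM) and the kinase Mylk (3.51, 4.0, 8.77 and 19.7 FPKM) passed the rule. All 5 were highest in the doubly deficient library. Markers of smooth muscle and pericytes, which share Acta2, Tagln, Cnn1 and Myh11 with this group, summed to 6525 FPKM in the doubly deficient and 3299 FPKM in the Terc-deficient library, and Cspg4 (31, 35.5, 4.35 and 17.1 FPKM) was the largest difference among them. Genes responsive to YAP and SRF were mixed, with Nov (CCN3) at 18.7, 38.3, 3.38 and 42.6 FPKM, Wisp2 at 67.6, 159, 132 and 43.2 FPKM, Ctgf at 469.7, 513, 987 and 515 FPKM and Cyr61 at 335, 369.7, 529 and 314 FPKM. Tnmd, a membrane protein of tendon, stood at 11.9, 14.3, 6.56 and 86.6 FPKM, more than in any other library, while the tendon factors Scx (5.93, 12.6, 5.44 and 9.25 FPKM) and Mkx (1.28, 1.4, 3.72 and 1.96 FPKM) lay within the rule and Egr1 was lower. Among cartilage markers Sox9 stood at 5.58 against 2.62 FPKM and Col11a2 at 1.33 against 1.91 FPKM, both within the rule.

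Growth factors went both ways, with 5 of 57 measured genes higher and 12 lower. Ptn, a heparin-binding factor of the embryo, stood at 162, 184, 26.1 and 333 FPKM, and its relative Mdk went the opposite way at 14.7, 12.6, 20.6 and 7.25 FPKM. Igf2, the fetal growth factor, stood at 209, 177, 20.7 and 96.7 FPKM, and its binding protein Igfbp3 at 28.2, 33.1, 23.5 and 77.5 FPKM. Tgfbi, a matrix protein induced by TGF-beta, stood at 9.23, 12.2, 8.95 and 41.1 FPKM, and Tgfb3 at 93, 102, 29.4 and 65.9 FPKM. Lower were the lymphatic factor Vegfc (10.3, 6.59, 35.8 and 4.3 FPKM), the epithelial growth factors Fgf10 (1.14, 1.75, 18.5 and 3.43 FPKM) and Fgf7 (7.64, 14.4, 116 and 46.1 FPKM), and Ereg (2.89, 5.03, 11.2 and 2.64 FPKM). The BMP ligands Bmp6 (1.41 against 6.66 FPKM), Gdf6 (5.8 against 20.2 FPKM) and Gdf10 (3.04 against 15.8 FPKM) and the BMP targets Id1 (21.2, 35.4, 113 and 32 FPKM) and Id3 (120.3, 142, 269 and 114 FPKM) were lower together, and Id2 (4.94, 8.11, 17.5 and 9.06 FPKM) lay within the rule at -0.88. Of 24 Wnt pathway genes 4 were higher and 3 lower. Sfrp1, a secreted antagonist, stood at 6.52, 14.7, 36.5 and 189 FPKM, Ror1, a receptor of Wnt5a, at 1.38, 1.84, 0.44 and 3.35 FPKM, and Wnt5a itself at 41.3, 38, 61.9 and 29.8 FPKM. Lgr5 (34.6, 33.6, 1.41 and 4.76 FPKM) and Fzd4 (1.69, 2.34, 1.25 and 3.87 FPKM) were higher, and the antagonists Dkk2 (10.2, 6.13, 67.8 and 17 FPKM) and Nkd2 (5.6, 5.29, 9.61 and 2.77 FPKM) lower.

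Imprinted genes, expressed from 1 parental copy and many of them tied to fetal growth, had 6 of 19 higher and 1 lower, with a median of 0.71. H19, a noncoding RNA next to Igf2, stood at 389, 313, 73.8 and 475 FPKM, Mest at 27.4, 27.4, 1.27 and 11.3 FPKM, Plagl1, a factor that regulates others of the group, at 9.12, 11, 2.92 and 14.1 FPKM, and Dlk1 at 6.63, 10.9, 6.05 and 17.6 FPKM. H19 and Igf2 were lowest in the Terc-deficient library, and H19 but not Igf2 exceeded wild type in the doubly deficient one. Peg10 (5.68, 5.61, 1.32 and 4.71 FPKM) and Igf2 completed the 6. Dcn, imprinted in placenta, was the lower member. Gnas (-0.10), Ndn (-0.18) and Igf2r (0.41) lay within the rule. Hox genes, which record the position of a cell along the body, had 1 of 33 higher and 2 lower, near the shares of 1.53% and 5.15% over all genes. Hoxd11 (1.65, 4.22, 5.28 and 0.807 FPKM) and Hoxa11 (7.33, 6.23, 9.47 and 3.95 FPKM), expressed in the forearm and lower leg of the embryo, were lower, and Hoxb13 (1.94, 0.406, 0.685 and 3.21 FPKM), a posterior gene, was higher. All 15 anterior Hox genes stayed within the rule.

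Antioxidant and iron genes were lower in part. Of 38 in the NRF2 list 12 were lower and 0 higher, with a median of -0.58. The haem oxygenase Hmox1 (83, 101, 409.6 and 115 FPKM), the quinone reductase Nqo1 (8.24, 9.54, 51.9 and 13 FPKM), the biliverdin reductase Blvrb (15.7, 16.1, 79.8 and 23.6 FPKM) and the ferritin heavy chain Fth1 (524, 558, 1945 and 759.7 FPKM) had values closer to wild type in the doubly deficient than in the Terc-deficient library. Glutathione genes Gstm1 (17.7 against 53 FPKM), Gclm (26.2 against 57.4 FPKM) and Mgst1 (35 against 89.8 FPKM) and the metallothionein Mt2 (125 against 346 FPKM) were lower as well. Mt1 (333 against 298 FPKM), its neighbour, lay near 0, and Tfrc, the transferrin receptor, lay at 0.76. The factor Nfe2l2, NRF2 itself, stood at 38.1 against 57.5 FPKM, and the superoxide dismutase Sod3 at 13.7, 28.6, 378 and 96.3 FPKM. Glycolysis and hypoxia genes leaned lower, with a median of -0.52 and 33 of 38 differences below 0. By the size rule 3 were lower and 0 higher, near the shares of 5.15% and 1.53% over all genes. Adm (13.3, 21, 360.4 and 85.5 FPKM), a vasodilator peptide, and Egln3 (2.78, 3.12, 26.6 and 7.32 FPKM), a prolyl hydroxylase that marks HIF for decay, were lower, and so was Aldoc (2.04 against 5.51 FPKM). Hif1a (44.6, 48.8, 202 and 115 FPKM), Slc2a1 (57.3, 69, 196 and 118 FPKM) and Ldha (663, 709, 1135 and 892 FPKM) lay within the rule below 0.

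Lipid synthesis leaned the other way. Of 38 sterol and fatty acid genes 2 were higher and 1 was lower, with a median of 0.65, and 34 differences lay above 0, all 18 of sterol synthesis among them. Scd2, a fatty acid desaturase, stood at 402, 322, 129 and 286 FPKM, and Insig1, which holds back the sterol sensor and is itself a sterol-regulated target, at 99.7, 86.7, 25.1 and 56.1 FPKM. The mevalonate pathway enzymes Mvk (50.5, 45.2, 17.5 and 35.2 FPKM) and Idi1 (69.5, 61.2, 21 and 40.2 FPKM) were within the rule, each with the doubly deficient library between the Terc-deficient one and wild type. Abcg1, which exports cholesterol and is induced when it is abundant, was lower, at 1.62, 1.66, 3.48 and 1.21 FPKM. Among targets of the stress factor ATF4, Slc7a5 (119.7, 99.5, 17.4 and 47.9 FPKM), which carries large amino acids into the cell, and the mitochondrial folate enzymes Mthfd2 (77.6, 61, 17.1 and 46.9 FPKM) and Aldh1l2 (29.8, 25.3, 5.88 and 14.6 FPKM) were higher, and all 16 measured genes of amino acid supply lay above 0. No chaperone of the endoplasmic reticulum passed the rule, with Hspa5 at 391 against 418 FPKM. The housekeeping groups were close to 0, with 0 of 59 ribosome genes and 0 of 33 oxidative phosphorylation genes called, and medians of 0.13 and -0.0054. Rps27, a ribosomal protein gene outside that list, was listed at 419.8, 220.4, 448 and 9.7 FPKM, but it has processed copies and the value is uncertain. The proteasome had 0 of 24 called and the lysosome 1 of 23, Ctsl, at 254 against 529.7 FPKM.

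Clustered histone genes, whose replication-dependent transcripts lack a poly(A) tail, were lower in 5 of 14 measured cases and higher in 1, with a median of -0.66. The linker histone gene Hist1h1c stood at 44.1, 52.1, 222 and 98.6 FPKM and Hist1h4h at 2.43, 1.1, 43.1 and 11.9 FPKM. Poly(A) selection keeps only their polyadenylated forms. Guidance molecules had 3 of 34 higher and 3 lower. Sema7a (4.35, 6.7, 1.32 and 15.1 FPKM), Epha3 (14.8, 14.3, 2.22 and 7.3 FPKM) and the co-receptor Nrp1 (35.2, 46.1, 28.8 and 66.5 FPKM) were higher, and the class 3 semaphorins Sema3e (6.24, 4.23, 23 and 1.54 FPKM) and Sema3c (6.56, 7.28, 89.6 and 13.2 FPKM) and the netrin Ntn1 (3.92, 3.54, 15.6 and 2.41 FPKM) lower. Nrp2, the other co-receptor, lay at -0.94. Among 24 integrins, laminins and adhesion molecules 3 were lower, the leukocyte ligands Icam1 (3.11, 2.83, 27.7 and 3.69 FPKM) and Vcam1 (29.7, 29.9, 113 and 39.9 FPKM) and Itga4 (8.81, 5.5, 8.73 and 0.812 FPKM), an integrin that binds Vcam1. Higher were the laminin chain Lama5 (7.07, 13.7, 2.21 and 7.81 FPKM) and the collagen receptor Itga11 (75.6, 99.6, 21.7 and 61.3 FPKM).

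Beyond the lists, a few genes stood out among the 30 largest differences each way. The opioid precursor Penk (1.31, 2.69, 60.3 and 1.87 FPKM) and the monooxygenase Fmo2 (0.0818, 0.272, 23.1 and 1.02 FPKM) were lower, as were the prolactin-family genes Prl2c3 (0, 0, 38.6 and 1.54 FPKM) and Prl2c2 (0.0874, 0.0854, 20.7 and 0.428 FPKM), near-identical copies whose split of fragments is uncertain. Higher were the gap junction gene Gjb2 (11, 28.4, 0.0691 and 8.59 FPKM), also a marker in the epithelial list, the matrix proteins Smoc2 (27.2, 21.5, 7.62 and 45.2 FPKM) and Cthrc1 (43, 47.1, 13.5 and 60.9 FPKM), the receptor Gfra1 (32.7, 28.9, 1.93 and 9.91 FPKM) and the natriuretic peptide genes Nppb (2.13, 4.0, 1.58 and 9.05 FPKM) and Nppa (1.47, 0.32, 0.324 and 3.53 FPKM). Epithelial markers other than Gjb2, Krt18 and Krt19 were under the filter, and that list summed to 26.9 FPKM in the doubly deficient and 9.61 FPKM in the Terc-deficient library. The list of 8 cardiac markers, which holds Nppa and Nppb, summed to 15.9 and 4.06 FPKM, with Tnnt2 at 2.05 against 0.784 FPKM, Tnni3 at 1.29 against 1.31 FPKM, and Myh6, Myh7, Nkx2-5 and Ryr2 at most 0.0384 FPKM. The part of such cells was not tested. A pair of uncharacterised transcripts followed the Gadd45a label in all 4 libraries. Gm12238, with the largest positive difference, was listed at 0, 11, 0 and 21.9 FPKM, and LOC100302567 at 37.3, 0, 36.9 and 0 FPKM. Pisd-ps3, a pseudogene, stood at 4.7, 10.6, 0.0627 and 11.6 FPKM. As pseudogenes or predicted genes they may share fragments with copies.

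The same pair of labels exists in cells with Terc, where it shares no library with the G3 pair. Across 10995 genes measured in both, the G3 difference and the difference of Gadd45a-deficient minus wild type had r = 0.023 and a Spearman rho of -0.0157, as a description over genes of 4 libraries. The spread was wider in G3, with an SD over genes of 0.541 against 0.235, and in cells with Terc 39 of 11249 genes were higher and 24 lower. The pair with Terc also differed in sex-linked transcripts, since Xist stood at 23.96 FPKM in wild type and at 0.154 FPKM in the Gadd45a-deficient library. Past the size rule in both pairs were 17 genes, 12 in the same direction and 5 in opposite ones. Higher in both were Gm12238, Il1rn, 1500015O10Rik, Gzme, Gjb2, Mcpt8, Sfrp1 and Pisd-ps3, of which Il1rn gave differences of 3.37 in G3 and 1.76 with Terc, and Sfrp1 gave 2.34 and 1.06. Lower in both were LOC100302567, E230016M11Rik, Gm19705 and Trf. Trf, transferrin, gave -3.06 and -1.29. List medians with Terc were taken over the members that passed the G3 filter. They were 0.19 for the interferon response, 0.21 for chemokines and -0.0049 for acute-phase and complement genes. For mitosis and collagens they were -0.046 and 0.05. In the interferon, chemokine and acute-phase lists the wild-type median of log2(FPKM + 1) was only 1.88, 1.52 and 1.22. The added 1 FPKM holds differences of such low values near 0, so their small medians do not show that a difference with Terc is absent.

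**Figure D5:**
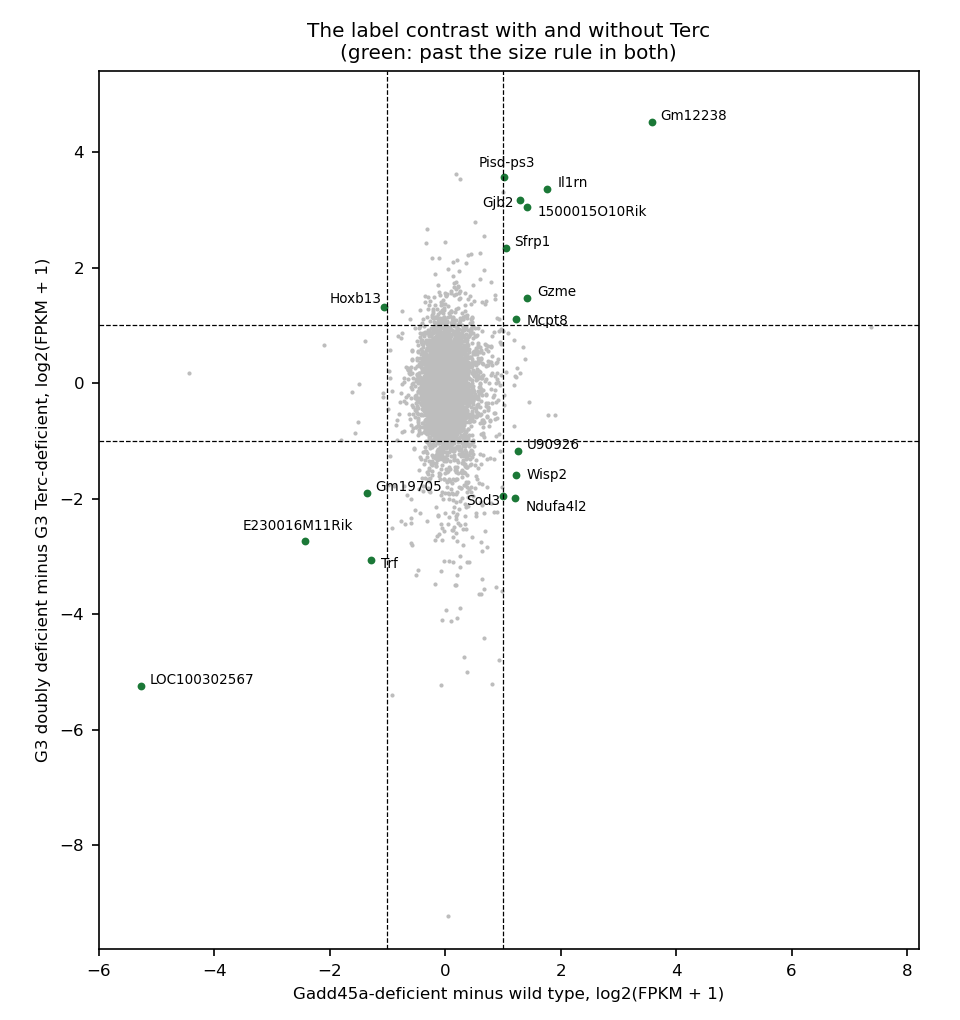
Each point is 1 of 10995 genes, with the difference of log2(FPKM + 1) of Gadd45a-deficient minus wild type on the x axis and of G3 doubly deficient minus G3 Terc-deficient on the y axis, and dashed lines at the size rule. The cloud is tall and narrow, and the 17 named genes are those past the rule on both axes.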

How the data were processed

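Poly(A)-selected RNA from primary embryo fibroblasts was sequenced, 1 library per genotype. The authors deposited FPKM per gene symbol, made with TopHat2 2.1.1 and Cufflinks 2.2.1 on mm9 per the submitters' processing notes. The gene annotation, strand setting and filters are not given in the sources used here. Depth was estimated from the smallest FPKM steps at 19500000 to 19900000 fragments per library, and 77.9% to 80.5% of low values came out whole within 0.1 fragment. At that depth 1 FPKM on a 2 kb transcript is about 35.7 fragments, and counting error alone gives a log2 ratio an SE of 0.342 there and 0.108 at 10 FPKM.

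Differences of log2(FPKM + 1), list counts and medians were computed with Python 3.11.15, numpy 2.4.6, pandas 2.3.3 and matplotlib 3.10.9. The calling of genes was tried on simulated data with counting noise only, genes of at least 5 FPKM and planted changes well past the size rule. That trial does not cover genes of 1 to 5 FPKM or variation between cultures, so it is no check of the calls. No test was possible with 1 library per genotype. GENCODE M21 on GRCm38 gave neighbour order and transcript length only, with no mm9 coordinates taken from it. The members and the 33 lists were chosen with earlier results of these data known. Named genes were the Gadd45 family, Terc and Tert, the 30 largest differences each way, the longest runs, the genes nearest the size rule, and up to 6 members per role with the largest differences or at odds with their list. Other list members were named as central to their role after their values were seen. Alternatives were other pseudocounts, filters and scalings, and leaving out unnamed genes and genes listed at 0. Some genes are not reported here.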

Additional observations from a re-analysis of the deposited data

Results flagged for a closer look

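Of the genes measured in both pairs of libraries, 5 passed the size rule in opposite directions with the Gadd45a label in G3 cells and in cells with Terc. Each value is a difference of log2(FPKM + 1) between single libraries, and the difference between the pairs was not tested. Hoxb13, a posterior Hox gene, gave 1.32 in G3 cells and -1.06 with Terc. Ndufa4l2, a hypoxia-induced mitochondrial protein, gave -2.0 and 1.21. Sod3, the extracellular superoxide dismutase, gave -1.96 and 1.01. U90926, a noncoding transcript, gave -1.17 and 1.27. Wisp2, a matricellular protein of the CCN family, gave -1.59 and 1.22.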

How the results depend on the processing

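The number of higher genes was 179 and of lower genes 601. A pseudocount of 0.1 FPKM gave 332 higher and 804 lower, a pseudocount of 5 FPKM gave 71 and 317, and a mean FPKM of at least 5 gave 117 and 386. Quantile normalization gave 256 and 511, and median-of-ratios scaling 206 and 569. Lower genes outnumbered higher ones under each of these settings. Of the differences recomputed for single genes, 313 kept their side of the size rule and 2 did not, Nppa at 0.68 and Gm15698 at 0.82 with the pseudocount of 5 FPKM. Of the recomputed list medians 151 stayed within 0.25 and 14 moved further, with no change of sign among those 14. With the pseudocount of 5 FPKM the median of chemokines went from -3.26 to -1.96, of interferon genes from -1.77 to -1.09, of acute-phase and complement genes from -1.76 to -1.08, of mitosis from 0.82 to 0.44, of tendon, cartilage and bone genes from 0.77 to 0.37 and of histones from -0.66 to -0.38. With a pseudocount of 0.1 FPKM chemokines, interferon genes, mitosis and histones lay further from 0, at -4.14, -2.25, 1.14 and -0.96. A mean FPKM of at least 5 gave -4.07 for chemokines, -2.27 for acute-phase genes and 0.42 for the tendon list, and quantile normalization gave -1.38 for acute-phase genes. The medians of axon guidance, cell cycle inhibitors, oxidative phosphorylation and telomere genes changed sign with the setting. No paired analysis was possible because each genotype has 1 library. Genes near 1 FPKM are limited by depth.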
